A study of Mus musculus with 12 samples.

Results

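Transcripts were compared between MEC cells treated with BMP6 for 24 h and mock-treated MEC cells, using all 3 arrays of each group, which are 6 of the 12 arrays of the study. The arrays were chosen by their titles and paired by the replicate number in the title. All 20280 value rows were tested, and 10576 of them could be named, giving 8267 genes. MEC is a mouse endothelial cell line derived from the embryo, and BMP6 (bone morphogenetic protein 6) is a secreted growth factor of the TGF-beta superfamily. The study also holds 3 arrays each at 4 h and 12 h of BMP6, and its title points to cyclooxygenase 2 and prostanoid production. The 3 arrays of a group are independent biological replicates per the labels. Cell RNA carried the red dye on every array, and a common mouse reference RNA the green dye.

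All groups came from the same cell line, with no genotype or second agent given, so the treated and the mock-treated cells differ in the labels by BMP6 alone. The sources used here do not state the dose of BMP6 or when the controls were collected. Each value is a log ratio between cells and reference, and they do not give its sign or base either. It is read here as a log2 value that is positive where the cells exceed the reference, from the dyes. If the sign ran the other way, every rise below would be a fall, and on a natural log scale every fold would be larger. Gene names depend on a reading order of the array grid that is described with the processing. Over the 12 arrays the medians lay between -0.044 and 0.002, and correlations between arrays ran from 0.877 to 0.98. No spot intensities were used, so nothing is said on whether a probe was above background, and precision is limited by the number of arrays.

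BMP ligands bind a complex of type I and type II serine/threonine kinase receptors, and the type I receptor phosphorylates a group of Smad proteins that enter the nucleus with Smad4. The inhibitor of DNA binding genes (Id genes) are their classical direct targets. Id proteins bind the partners of basic helix-loop-helix transcription factors and keep them off DNA. In endothelial cells BMP signalling is known for its part in vessel growth, migration and the control of quiescence.

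At 24 h of BMP6 a small set of genes stood apart from control. Id2, Id1, Id3 and Cobl rose by between 1.86-fold and 2.27-fold, Cemip and Pxylp1 rose by less, and Tuba1c, Gas1, B3gnt5, Sema3c, Adamts1, 2510002D24Rik, Sulf1 and Tgm2 fell by between 1.27-fold and 1.59-fold. In limma's paired fit these were 14 of the 8267 genes, which is 0.169% of the genes tested, with 6 higher (0.0726%) and 8 lower (0.0968%) at a Benjamini-Hochberg adjusted p under 0.05. An unadjusted p under 0.05 was reached by 656 genes (7.94%), 258 of them higher and 398 lower, where 5% of the genes tested is 413.35. Across all genes the change was centred near 0 (median -0.005), 47.3% of genes lay above 0, and 25 genes differed from control by more than 0.5 in either direction.

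All 14 calls depended on pairing the arrays. In limma's fit without the replicate number none of the 8267 genes and none of the 20280 probes passed, while 166 genes and 378 probes had an unadjusted p under 0.05, and the adjusted p of the 14 genes ran from 0.434 to 1. The SE of their changes was 1.21 to 5.29 times larger without the pairing. Over single probes, where the adjustment runs over 20280 tests, the paired fit called 4 probes (0.0197%), those of Id1, Id3, Id2 and Gas1. The 14 genes are each represented by 1 probe. Since the same values chose them, their order, their agreement over the 3 pairs and their separation from control are given below as a description.

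**Figure D1:**
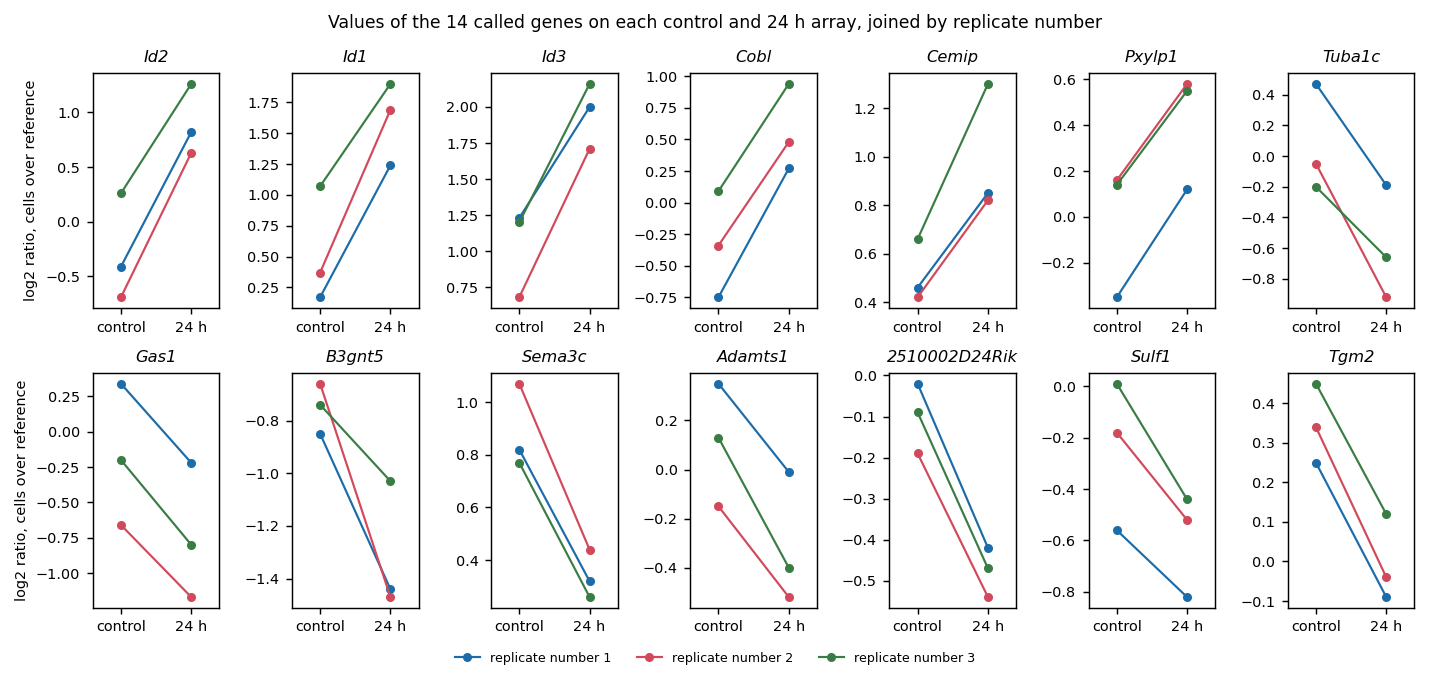
Log2 ratio (cells over reference) of each of the 14 genes with an adjusted p under 0.05, on the control and 24 h arrays, with lines joining arrays of the same replicate number; each panel has its own vertical scale. In every panel the 3 lines run in the same direction, while the starting level differs between numbers, as for Gas1, whose controls lie between -0.66 and 0.34.

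The 3 Id genes were the leading group. Id2 read -0.41, -0.69 and 0.26 on control arrays 1 to 3, and 0.82, 0.63 and 1.26 on the 24 h arrays of the same numbers. Every treated value lay above every control value, and the change was 1.19 (SE 0.134, limma adjusted p = 0.00869), or 2.27-fold. Id1 stood at 0.17, 0.37 and 1.07 in control cells and at 1.24, 1.69 and 1.9 after treatment. The groups again did not overlap, and the change was 1.07 (SE 0.0943, limma adjusted p = 0.00168), or 2.1-fold. Id3 went from 1.23, 0.68 and 1.2 to 2, 1.71 and 2.16, so that its lowest treated value was above its highest control. Its change was 0.92 (SE 0.078, limma adjusted p = 0.00168), or 1.89-fold. Id1 and Id3 were the only genes of the 14 to pass when any 1 of the 6 arrays was left out, with an adjusted p of at most 0.0226. When both arrays of a pair were left out with the 4 h and 12 h arrays of that number, Id1 passed in none of the 3 fits (0.0502 to 0.0822). Id3 then passed without number 1 (0.0483), as did Id2 and Cobl, and missed without number 2 (0.129) or 3 (0.0502). Id2 missed the threshold without control array 1 (0.0602), control array 2 (0.0612), 24 h array 2 (0.0738) or 24 h array 3 (0.072).

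Among the genes that rose outside the Id family, Cobl encodes cordon-bleu, a protein that nucleates actin filaments. It measured -0.75, -0.34 and 0.09 in control cells and 0.27, 0.48 and 0.94 at 24 h, with no overlap, for a change of 0.9 (SE 0.114, limma adjusted p = 0.0196). Cemip encodes a protein that takes part in breaking down hyaluronan, a large sugar polymer of the matrix. Its values of 0.46, 0.42 and 0.66 in control and 0.85, 0.82 and 1.3 at 24 h did not overlap, and the change was 0.48 (SE 0.072, limma adjusted p = 0.0349). Pxylp1 encodes a phosphatase that acts on xylose in the linker of proteoglycan sugar chains. It lay at -0.35, 0.16 and 0.14 in control and at 0.12, 0.58 and 0.55 at 24 h, a change of 0.44 (SE 0.0666, limma adjusted p = 0.038). The 2 groups of Pxylp1 overlapped, because number 1 was low in both, but each pair differed by between 0.41 and 0.48.

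The sequence before the start of these genes is shown because Smad proteins are known to bind GC-rich elements and the short Smad box in Id promoters. RefSeq promoters of build GRCm38.p6 were matched for 11 of the 14 genes, and those of Id1, Sulf1 and Tgm2 were not matched. Of the genes that rose, the matched ones are printed 5′ to 3′ on the strand of the gene, as the 250 bases before the start, with 2 motifs in capitals: GGCGCC, which reads the same on both strands, and the Smad box CAGAC, which reads GTCTG on the other strand. The motifs can share 1 letter. Cobl has 2 starts in the table, and the first is printed.
Id2, chr12:25096093-25096342, minus strand: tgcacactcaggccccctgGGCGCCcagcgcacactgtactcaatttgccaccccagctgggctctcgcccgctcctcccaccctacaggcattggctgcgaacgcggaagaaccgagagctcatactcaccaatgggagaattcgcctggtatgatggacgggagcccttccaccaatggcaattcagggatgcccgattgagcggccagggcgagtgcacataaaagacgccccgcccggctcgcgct
Id3, chr4:136143572-136143821, plus strand: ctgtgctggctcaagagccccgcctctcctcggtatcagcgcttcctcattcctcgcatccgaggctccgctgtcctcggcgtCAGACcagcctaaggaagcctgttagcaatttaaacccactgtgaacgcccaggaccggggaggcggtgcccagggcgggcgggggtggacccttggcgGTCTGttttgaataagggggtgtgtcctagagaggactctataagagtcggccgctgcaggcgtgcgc
Cobl, chr11:12464961-12465210, minus strand: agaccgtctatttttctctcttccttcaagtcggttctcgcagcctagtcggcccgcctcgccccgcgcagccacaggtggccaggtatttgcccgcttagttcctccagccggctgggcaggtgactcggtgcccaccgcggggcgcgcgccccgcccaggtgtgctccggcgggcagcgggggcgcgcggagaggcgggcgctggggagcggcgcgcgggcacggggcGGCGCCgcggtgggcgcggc
Cemip, chr7:84086506-84086755, minus strand: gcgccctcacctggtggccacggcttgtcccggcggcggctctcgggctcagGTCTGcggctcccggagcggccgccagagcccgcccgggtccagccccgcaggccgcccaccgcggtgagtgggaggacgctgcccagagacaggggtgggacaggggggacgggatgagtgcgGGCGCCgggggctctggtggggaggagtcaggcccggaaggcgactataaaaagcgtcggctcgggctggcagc
Pxylp1, chr9:96889475-96889724, minus strand: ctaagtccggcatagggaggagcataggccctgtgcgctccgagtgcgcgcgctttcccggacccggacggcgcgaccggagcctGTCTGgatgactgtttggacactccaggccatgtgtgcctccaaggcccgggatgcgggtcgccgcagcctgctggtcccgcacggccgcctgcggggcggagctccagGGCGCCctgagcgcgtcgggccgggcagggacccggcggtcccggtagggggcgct

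GGCGCC was present in 4 of these 5 promoters (Id2, Cobl, Cemip and Pxylp1), and the count rests on the first Cobl start. The second (chr11:12412141-12412390, minus strand) held neither motif and had 43.2% G and C. GGCGCC was also found in 2 of the 6 matched promoters of genes that fell (Sema3c and Gas1). Over all 32851 promoters of the same length in the table, 9.6% held it. The G and C content of the 5 printed promoters was 62.8% for Id2 and Id3 and 73.6% to 75.2% for the others, against a median of 52.4% over all promoters and 66.8% over those that hold GGCGCC. The Smad box in either orientation was in Id3, Cemip and Pxylp1 and in 2 of the 6 that fell, against 42.2% of all promoters. These matches describe letters in a window and were not tested against the expression values. No sequence outside the 250 bases was searched, and whether any match is a known Smad site was not checked.

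Genes that did not pass included larger falls, those of Alx1 (-0.9) and Tgtp1 (-0.68). Of the genes called lower, Tuba1c, which encodes an alpha-tubulin, fell most. Its probe can share signal with other, near-identical alpha-tubulin genes, which the values do not separate. Tuba1c stood at 0.47, -0.05 and -0.2 in control and at -0.19, -0.92 and -0.66 at 24 h, a change of -0.67 (SE 0.0931, limma adjusted p = 0.0249), or 1.59-fold lower. Its groups overlapped by a single pair of values. Gas1, a growth arrest gene whose product sits on the cell surface, read 0.34, -0.66 and -0.2 in control and -0.22, -1.17 and -0.8 at 24 h. Its groups overlapped, with the treated value of number 1 above the control of number 2, and its pairs differed by between -0.6 and -0.51, which gave a change of -0.56 (SE 0.0599, limma adjusted p = 0.00746). Gas1 missed the threshold without control array 1 (0.0602), 24 h array 2 (0.0659) or 24 h array 3 (0.072).

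B3gnt5 encodes a glycosyltransferase that builds the core of lacto-series glycolipids. It lay at -0.85, -0.66 and -0.74 in control and at -1.44, -1.47 and -1.03 at 24 h, with no overlap, for a change of -0.56 (SE 0.0876, limma adjusted p = 0.0414). Sema3c, a secreted semaphorin that guides neural crest and endothelial cells, measured 0.82, 1.07 and 0.77 in control and 0.32, 0.44 and 0.26 at 24 h. Its groups were also apart, and the change was -0.54 (SE 0.0745, limma adjusted p = 0.0249). Adamts1, a secreted metalloprotease that cuts proteoglycans, read 0.35, -0.15 and 0.13 in control and -0.01, -0.52 and -0.4 at 24 h, a change of -0.42 (SE 0.0599, limma adjusted p = 0.0285). Adamts1 overlapped between groups because number 1 was high in both.

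The remaining 3 fell by similar amounts. For 2510002D24Rik, a gene with no function given here, control values of -0.02, -0.19 and -0.09 stood against -0.42, -0.54 and -0.47 at 24 h, a change of -0.38 (SE 0.0525, limma adjusted p = 0.0249) with no overlap. Sulf1, a sulfatase that removes sulfate groups from heparan sulfate, lay at -0.56, -0.18 and 0.01 and then at -0.82, -0.52 and -0.44, a change of -0.35 (SE 0.0509, limma adjusted p = 0.0291) with overlapping groups. Tgm2, a transglutaminase that crosslinks proteins of the matrix, measured 0.25, 0.34 and 0.45 and then -0.09, -0.04 and 0.12, a change of -0.35 (SE 0.0473, limma adjusted p = 0.0249) with no overlap.

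Between the 14 genes, 9 had groups that did not overlap, 5 above and 4 below control, where over all genes 4.48% did not overlap (2.01% above and 2.47% below). Leaving out single arrays raised most of their adjusted p-values above 0.05, while all 14 kept their direction. Each of the 14 had 1 sign in all 3 pairs, so the kept direction was largely fixed in advance. Cemip, Pxylp1, Adamts1, 2510002D24Rik, Sulf1 and Tgm2 missed the threshold without any 1 of the 6 arrays, with adjusted p-values between 0.057 and 0.255. Cobl, Sema3c and Tuba1c passed only without control array 3 (0.0414, 0.0287 and 0.0262) and reached 0.132, 0.168 and 0.158 otherwise. B3gnt5 passed only without 24 h array 3 (0.0468) and reached 0.261 otherwise. The count of genes was 3, 3 and 7 without control array 1, 2 or 3, and 6, 2 and 3 without 24 h array 1, 2 or 3.

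**Figure D2:**
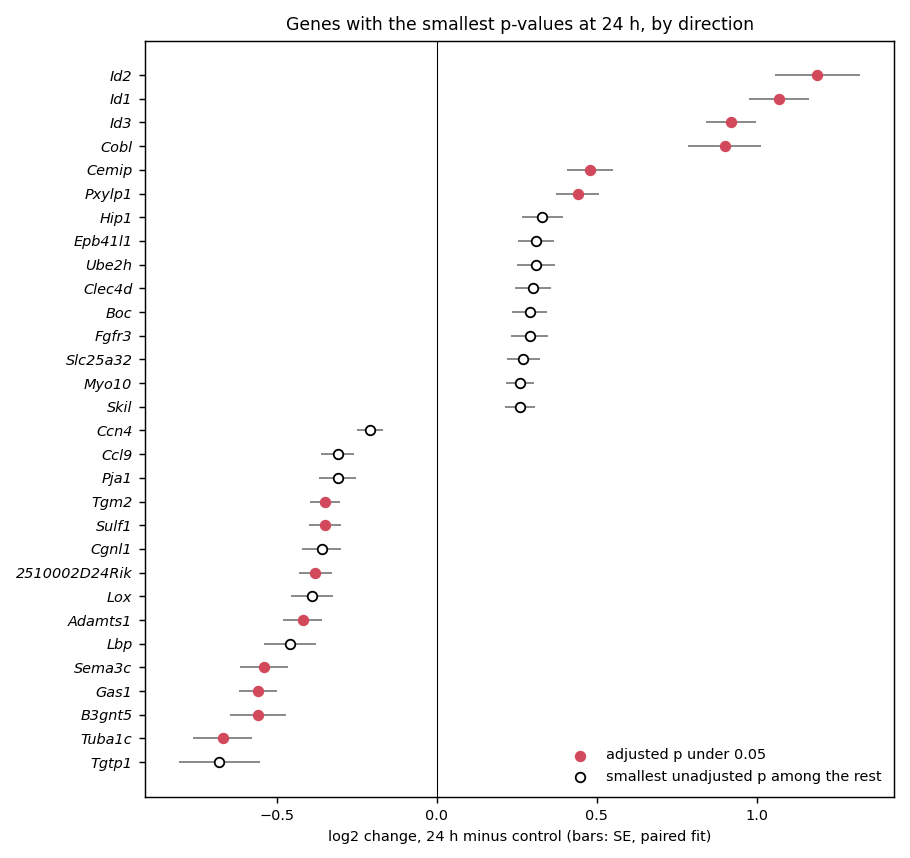
Log2 change at 24 h against control with its SE (bars, limma's paired fit) for the 15 higher and 15 lower genes taken by the naming rule; filled red points have an adjusted p under 0.05 and open points are the next genes by unadjusted p. Id2, Id1, Id3 and Cobl lie at 0.9 or above, and the open points on the higher side lie between 0.26 and 0.33.

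Next in order of p-value came genes that did not pass. On the higher side these were Myo10, Epb41l1, Skil, Slc25a32, Boc, Clec4d, Ube2h, Fgfr3 and Hip1, with changes between 0.26 and 0.33 and adjusted p-values between 0.0621 and 0.126. Skil, a nuclear repressor of Smad proteins that is itself induced by TGF-beta family signals, stood at -0.4, -0.36 and -0.12 in control and -0.13, -0.08 and 0.1 at 24 h (change 0.26, SE 0.0478, limma adjusted p = 0.106). On the lower side were Ccl9, Cgnl1, Lox, Lbp, Pja1, Ccn4 and Tgtp1, with changes between -0.68 and -0.21 and adjusted p-values between 0.0615 and 0.122. Lox, the enzyme that crosslinks collagen and elastin, showed how far the pairing matters. It read 1.62, 0.56 and 0.68 in control and 1.2, 0.17 and 0.32 at 24 h, so the treated value of number 1 lay within the control range while the pairs differed by between -0.43 and -0.36 (limma adjusted p = 0.0621).

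The 14 genes differed in how they had reached their 24 h value. The comparisons at 4, 12 and 24 h share the same 3 control arrays, so their values are set side by side and not counted against each other. The Id genes were high throughout: Id1 changed by 0.98, 0.97 and 1.07 at 4, 12 and 24 h, Id2 by 0.84, 1.27 and 1.19, and Id3 by 0.64, 0.79 and 0.92. Cemip was at 0.42, 0.33 and 0.48, Gas1 at -0.57, -0.61 and -0.56, Sema3c at -0.62, -0.64 and -0.54, and Sulf1 at -0.35, -0.34 and -0.35. For none of these 7 did the 24 h value differ from the 4 h value in limma's paired fit, the smallest adjusted p being 0.0747, for Id3. The difference from 4 h was 0.34 (SE 0.134) for Id2, 0.28 (SE 0.078) for Id3 and 0.09 (SE 0.0943) for Id1.

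A second set was near control at 4 h and away from it at 24 h. Cobl was at 0.04 at 4 h, 0.53 at 12 h and 0.9 at 24 h, and Pxylp1 at 0.08, 0.29 and 0.44. The 24 h value exceeded the 4 h value by 0.86 for Cobl (SE 0.114, limma adjusted p = 0.00449) and by 0.36 for Pxylp1 (SE 0.0666, limma adjusted p = 0.0159). On the lower side Tuba1c was at -0.07, -0.35 and -0.67, B3gnt5 at -0.06, -0.12 and -0.56, 2510002D24Rik at 0.02, -0.16 and -0.38, and Tgm2 at -0.05, -0.42 and -0.35. Their 24 h values lay below their 4 h values by between 0.3 and 0.6, with adjusted p-values from 0.00449 to 0.0129. Adamts1 moved the other way, from -0.81 at 4 h to -0.62 and then -0.42, and its 24 h value was 0.39 above its 4 h value (SE 0.0599, limma adjusted p = 0.00785).

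In all, 7 of the 14 genes differed between 24 h and 4 h, against 335 of the 8267 genes (4.05%), and none of the 14 differed between 24 h and 12 h, against 9 of all genes (0.109%). The 14 were chosen on the same 24 h arrays, so the first count is no independent evidence. None of these 7 differences passed without the replicate number, where the adjusted p ran from 0.0527 for 2510002D24Rik to 0.734 for Pxylp1.

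**Figure D3:**
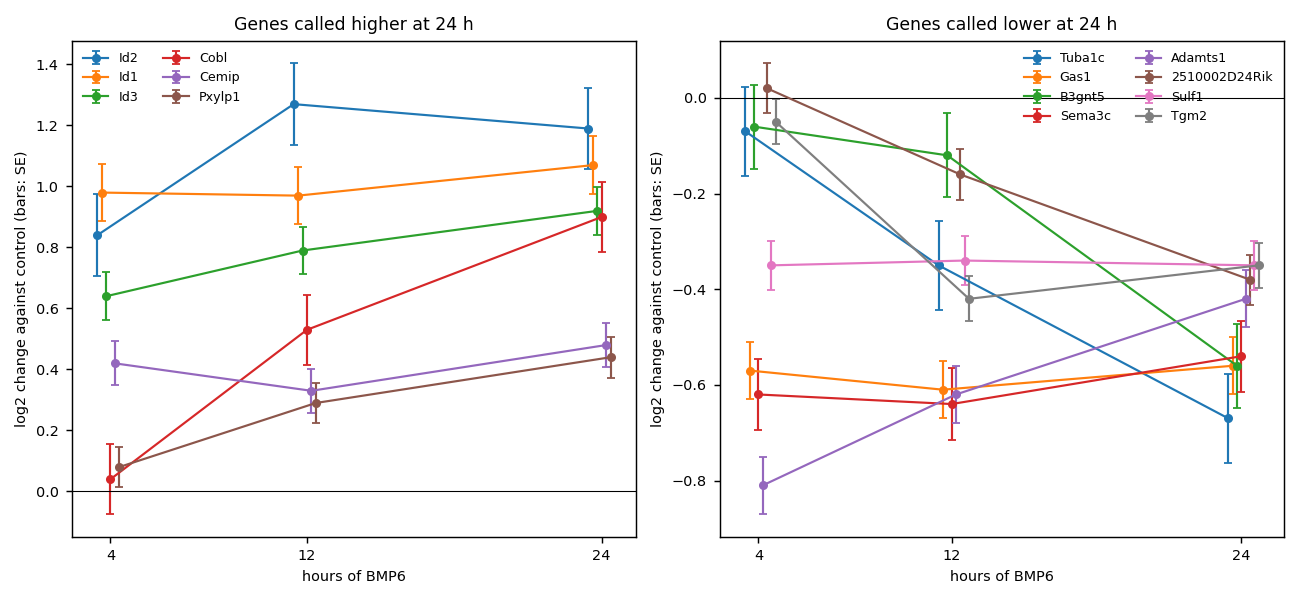
Log2 change against control, with SE bars from limma's paired fit, at 4, 12 and 24 h of BMP6 for the 6 genes higher and the 8 genes lower at 24 h; points are moved sideways slightly so that bars can be told apart. Id1, Gas1, Sema3c and Sulf1 run nearly level from 4 h to 24 h, whereas Cobl starts at 0.04 and ends at 0.9, and Tuba1c starts at -0.07 and ends at -0.67.

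Of the classical BMP target genes, 11 of 28 on the list were measured. The 3 Id genes rose and none fell, against 0.0726% of all genes higher, and 8 of the 11 lay above 0, with a median change of 0.04 beside -0.005 over all genes. Outside the Id genes the changes were small. Hes1, a Notch and BMP target that encodes a transcriptional repressor, stood at 1.06, 0.78 and 0.81 in control and at 1.14, 1.26 and 1.03 at 24 h (change 0.26, SE 0.07, limma adjusted p = 0.302). The related repressors Hey1 and Hey2 were at 0.04 and -0.12 relative to control. The homeobox gene Msx1 was lower in each pair, from -0.43, -0.42 and -0.43 to -0.57, -0.68 and -0.71, but missed the threshold (change -0.23, SE 0.0666, limma adjusted p = 0.384). Msx2 was at 0.06 (SE 0.0555), a sign that turned without 24 h array 2 (-0.007). Smad6, Smad7 and Bambi were not analysed here.

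Ligands, receptors and mediators of the BMP and TGF-beta pathway gave 24 measured members, of which none passed in either direction and 15 lay above 0 (median 0.021). The type I receptors Acvr1 and Bmpr1a were each 0.02 above control, with SEs of 0.0486 and 0.0531, and both signs turned when single arrays were left out. The type II receptor Bmpr2 was at 0.07 (SE 0.0503). Among ligands, Inhba, which encodes the activin A subunit, stood at 1.63, 0.84 and 1.31 in control and 1.91, 1.22 and 1.29 at 24 h (change 0.21, SE 0.116, limma adjusted p = 0.725). Tgfb1 was at 0.11 (SE 0.0596). At 4 h Acvr1 and Tgfb1 had been 0.32 and 0.45 above control, and their 24 h values were lower than those by 0.31 (limma adjusted p = 0.00841) and 0.33 (limma adjusted p = 0.0133).

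Prostanoid genes, the subject of the study's title, were not called at 24 h: of 10 measured members none passed, and 9 lay above 0 with a median of 0.053. Ptgs2, which encodes cyclooxygenase 2, the inducible enzyme of prostanoid synthesis, read 2.71, 2.74 and 3.52 in control and 3.22, 3.32 and 3.33 at 24 h. The control of number 3 was above all treated values, so that pairs 1 and 2 differed by 0.51 and 0.57 and pair 3 by -0.19. The change was 0.3 (SE 0.164, limma adjusted p = 0.726), after 1.35 at 4 h and 0.65 at 12 h, and the 24 h value was below the 4 h value by 1.05 (SE 0.164, limma adjusted p = 0.00802). Ptgis, the synthase of prostacyclin, was at -0.06 (SE 0.0577) after 0.46 at 4 h, and its 24 h value lay below its 4 h value by 0.52 (SE 0.0577, limma adjusted p = 0.00286). The prostaglandin E synthase Ptges was at 0.07 (SE 0.0614). The prostaglandin E receptor gene Ptger2 was higher in each pair by 0.05 to 0.21, without passing (limma adjusted p = 0.627). Ptgs1 and Ptgds were not analysed here.

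**Figure D4:**
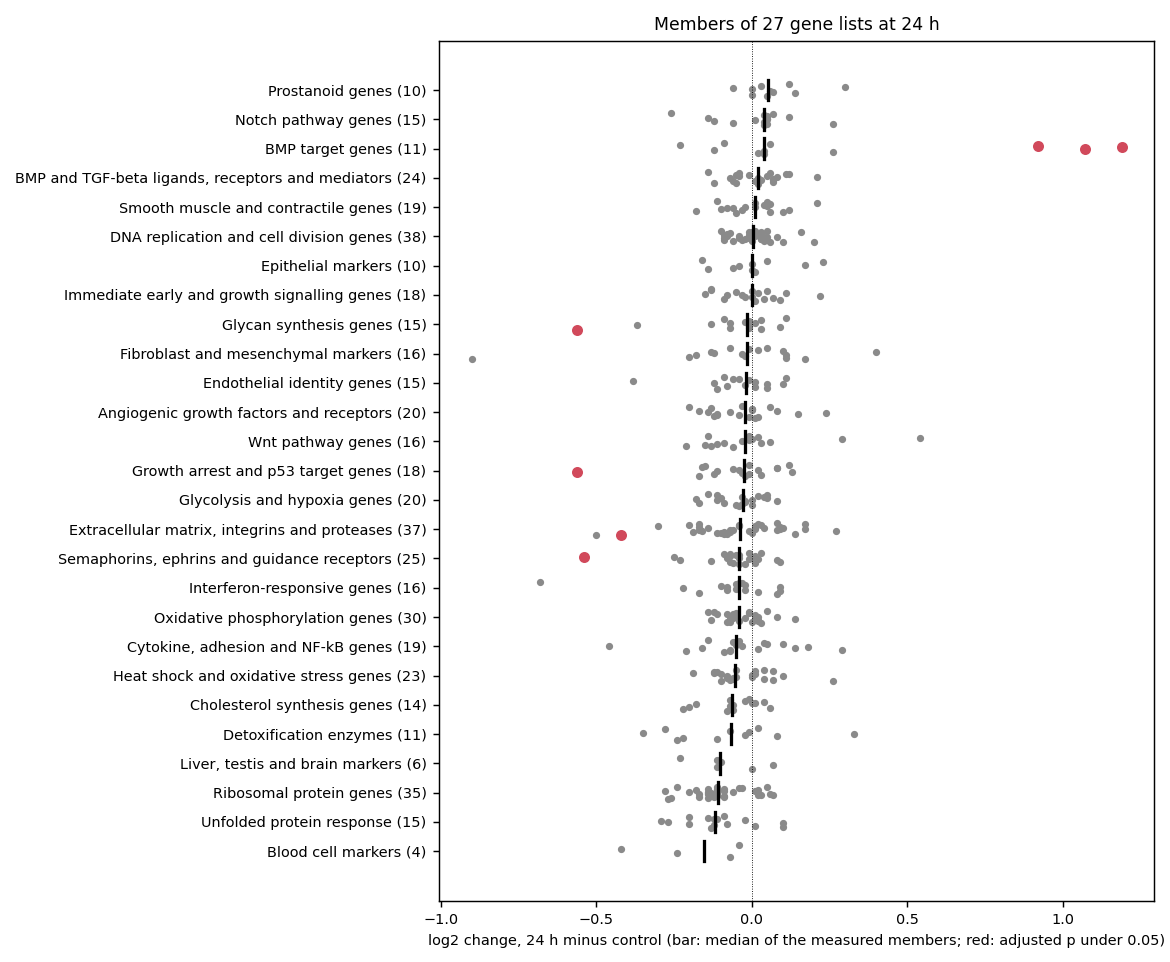
Log2 change at 24 h against control for the measured members of 27 gene lists (number measured in brackets); each point is a gene, black bars are list medians, and red points have an adjusted p under 0.05. The 3 Id genes stand apart to the right of the BMP target list, whose median is 0.04, and all list medians lie between -0.153 and 0.053.

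Endothelial identity was checked on 15 measured genes of the endothelial list. Their median level against the reference was -0.5 in control and -0.51 at 24 h, with 3 of 15 above the reference at 24 h (12 of 15 if the sign ran the other way), and a ratio to this reference says nothing on presence or absence. None passed at 24 h, and the median change was -0.017. Pecam1, an adhesion molecule of endothelial junctions, was at -1.62, -1.5 and -1.15 in control and -1.62, -2.13 and -1.64 at 24 h (change -0.38, SE 0.141, limma adjusted p = 0.53). Its lowest value came from 24 h array 2, which also held the lowest value of these 6 arrays for Cdh5 (-1.95) and for the leukocyte marker Ptprc (-1.63). Cdh5, the cadherin of endothelial junctions, changed by -0.11 (SE 0.0809). The VEGF receptor gene Kdr changed by -0.12 (SE 0.0889) and Flt1, another VEGF receptor, by -0.02 (SE 0.0554). None of them passed. Cdh5 turned sign when number 2 was left out (0.024), but not without 24 h array 2 alone (-0.026). Flt1 turned sign without number 2 or 3 (0.009 and 0.01) and without 24 h array 2 or 3 (0.021 and 0.003). Acvrl1, Eng, Tek and Icam1 were not analysed here.

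Markers of other cells gave no call. All 4 measured blood cell markers lay below 0 (median -0.153), with pair medians of -0.026, -0.492 and -0.114, so the lowest was again the pair of 24 h array 2. Of 16 fibroblast and mesenchymal markers 7 lay above 0 (median -0.016). The largest difference among them was that of Alx1, a homeobox gene of the embryonic mesenchyme. Alx1 stood at -0.37, -0.8 and -0.52 in control and at -1.21, -1.65 and -1.54 at 24 h, all below control, for a change of -0.9 (SE 0.229, limma adjusted p = 0.277). In a fit of the 6 arrays alone its adjusted p was 0.00698. Snai1, a transition regulator, was at 0.4 (SE 0.103, limma adjusted p = 0.285) after 0.79 at 4 h. The cadherin gene Cdh11 was at 0.17 and the homeobox gene Prrx1 at -0.13, neither passing. Of 19 smooth muscle and contractile genes 11 lay above 0 (median 0.011), and Tpm1, a tropomyosin, was at 0.21 (limma adjusted p = 0.192).

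Of 37 measured matrix, integrin and protease genes 1 fell (Adamts1), where 0.0968% of all genes fell, and none rose. Of the 37, 21 lay below 0. Of the 9 with an unadjusted p under 0.05, 8 were lower, where 398 of 656 were lower over all genes. Adamts5, a further protease of that family, stood at 1.73, 1.19 and 1.58 in control and 1.39, 0.68 and 0.94 at 24 h (change -0.5, SE 0.106, limma adjusted p = 0.16). The basement membrane gene Nid2 was at -0.3 (SE 0.0721, limma adjusted p = 0.23), with groups that did not overlap. Mmp2, a gelatinase, was at -0.17 (SE 0.0485, limma adjusted p = 0.384).

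In the guidance, glycan, growth arrest and Wnt lists at most 1 gene each passed, where 0.0968% of all genes fell. These lists were chosen with earlier results of these data known. Of 25 semaphorins, ephrins and guidance receptors 1 fell (Sema3c) and 18 lay below 0 (median -0.042); Sema3a, a repulsive semaphorin, was at -0.25 (limma adjusted p = 0.627) after -0.91 at 4 h. Among 15 glycan synthesis genes B3gnt5 fell and 10 lay below 0, and Gcnt1, an enzyme that branches O-glycans, was at -0.37 (SE 0.111, limma adjusted p = 0.421). Gas1 was the 1 gene to fall among 18 growth arrest and p53 target genes (median -0.026). None of 16 Wnt pathway genes passed. Wnt2, a secreted ligand, was at -0.98, -1 and -0.78 in control and -0.21, -0.56 and -0.38 at 24 h, all above control (change 0.54, SE 0.12, limma adjusted p = 0.192). Nkd1, an inhibitor and target of Wnt signalling, was at 0.29 with groups apart (SE 0.0577, limma adjusted p = 0.131).

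Angiogenic genes were not called. Of 20 measured 13 lay below 0 (median -0.02). Vegfa, the main endothelial growth factor, was at 0.06 (SE 0.0676), Fgf2 at 0.15 (SE 0.0874), and the receptor gene Fgfr2 at 0.24 (SE 0.0516, limma adjusted p = 0.16). The 38 DNA replication and cell division genes were centred at 0.003, 20 of them above 0, and none passed. In total 5 of the 27 lists held a gene that passed, and 22 held none. The 14 genes split into 7 on a list and 7 on none. The lists were chosen with earlier results of these data known, and the share of all genes on a list was not counted. The split is therefore a description only.

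A set of 41 genes picked for their 4 h response was closer to control by 24 h. Id1, Id2, Id3, Cemip, Gas1 and Sulf1 also passed at 4 h and are not among the 41. Their 24 h values did not pass as different from their 4 h values in limma's paired fit. Those of Id2 and Id3 were higher by 0.34 and 0.28. The pattern therefore describes the picked genes and not all genes changed at 4 h. The 41 genes of that kind were chosen in an earlier account of these data for large 4 h changes, so a smaller value at 24 h is partly fixed by that choice. The 23 picked as higher had a median of 0.67 at 4 h, 0.12 at 12 h and 0.07 at 24 h, and the 18 picked as lower -0.66, -0.4 and -0.15. All 41 were nearer to 0 at 24 h than at 4 h, 35 differed between the 2 times in limma's paired fit (4.05% of all genes did), and 2 passed against control at 24 h, Adamts1 and Sema3c.

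Among single genes of this kind, Ccn2, a matrix-associated signalling protein, stood at 0.31, 0.05 and 0.29 in control and 0.11, 0.03 and -0.01 at 24 h, a change of -0.18 (SE 0.197, limma adjusted p = 0.884) after 1.37 at 4 h. Tnfrsf12a, the receptor of the cytokine TWEAK, was at 0.16 after 1.13, Hbegf, a ligand of the EGF receptor, at 0.22 after 0.98, and Hmga2, a chromatin protein of embryonic cells, at 0.11 after 0.94. Il1rap, a subunit of the interleukin-1 receptor, was at 0.18 after 0.88, and Dusp6, a phosphatase that acts on ERK, at -0.09 after 0.71. On the lower side Cavin2, a coat protein of caveolae, was at -0.39 after -1.28, Armcx2 at -0.08 after -0.84 and Pmp22, a membrane protein, at -0.19 after -0.69. None of these 9 passed against control at 24 h. Cavin2, Pmp22 and Hbegf had groups that did not overlap at 24 h, Cavin2 and Pmp22 below and Hbegf above control. Over all genes 4.48% did not overlap (2.47% below and 2.01% above).

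**Figure D5:**
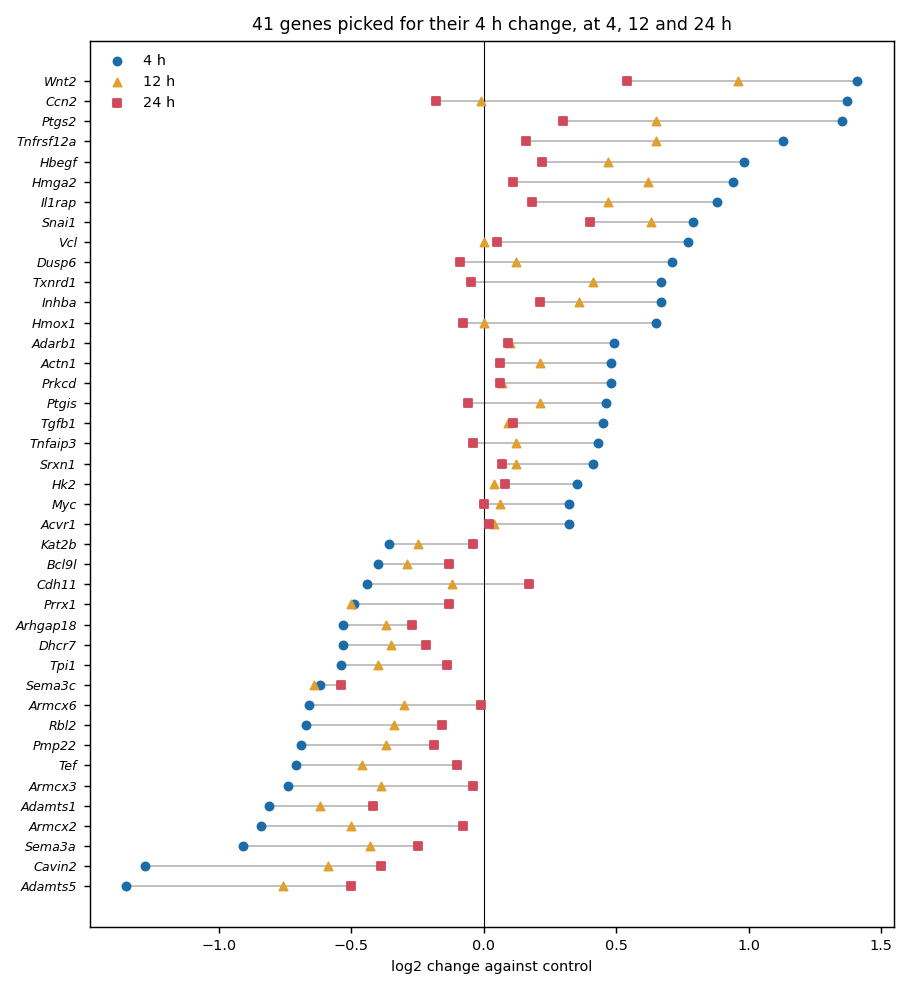
Log2 change against control at 4 h (circles), 12 h (triangles) and 24 h (squares) for the 41 genes picked in an earlier account for their 4 h change, 23 higher and 18 lower. Every square lies nearer to 0 than the circle of the same gene, and the squares run from -0.54 to 0.54. Id1, Id2, Id3, Cemip, Gas1 and Sulf1, which also passed at 4 h, are not among the 41.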

How the data were processed

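The deposited table holds 1 value per probe and array for the 12 arrays. Per the labels, the authors scanned the arrays with a GenePix 4000B scanner, quantified them with GenePix Pro 5.0, and normalized the raw data with a modified local quantiles method before they deposited the values. The deposited values are taken here as log2 ratios of cells to reference.

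Gene names came from the platform's annotation table (11083 probes listed, 10576 with 1 symbol, 507 with several, which were left unnamed). Symbols were updated for 10548 probes, and 28 kept an old one. Probes were placed on a grid of 215 rows by 105 columns read from the opposite corner, an order inferred from earlier work on these data. In it the first 2 probes of a gene correlated at r = 0.471 across 1831 genes, which are not independent replicates, against 0.021 in the deposited order. Probes of a gene were averaged.

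limma 3.58.1 (R 4.3.3; lmFit, eBayes, two-sided) was fitted to all 12 arrays with group and replicate number as terms, called the paired fit, with Benjamini-Hochberg adjustment over all rows or all genes. The arrays were paired by the replicate number in the title. Deviations from the group means correlated positively between same-numbered arrays (0.443 to 0.695), while between others the correlations ran from -0.564 to 0.069. Deviations from a group mean cancel out within the group, so positive correlations between same-numbered arrays push the others towards negative values. The contrast is therefore no independent evidence for the pairing. What arrays of the same number share is in no label. Replicate number held 54.1% of the sum of squares and treatment 20.6%.

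Genes were named by a rule: those with an adjusted p under 0.05 and 1 sign in the 3 pairs, up to 15 a direction, filled by smallest unadjusted p, plus members of gene lists and a set of BMP, prostanoid and endothelial genes. Members and lists were chosen with earlier results of these data known. The fits were tested on simulated data. Those values were drawn from the paired model fitted to these arrays, so that test cannot show whether pairing by number is right. Alternatives were the fit without the replicate number, the 6 arrays alone, the methods' t-test, other scalings, a filter on low ratios, a prior trend, and leaving out arrays.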

Additional observations from a re-analysis of the deposited data

Results flagged for a closer look

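Of the 81 genes named, 37 had a 24 h change that differed from their 4 h change in limma's paired fit. Over all 8267 genes 335 (4.05%) did. From 12 h, 3 of the 81 differed, against 9 of all genes (0.109%). Many of the 81 were named for their 24 h or 4 h values, so these counts partly follow from that choice. Each value below is the difference in log2 ratio between the 2 times. Of the 37, 23 lay nearer to control at 24 h than at 4 h, and 14 lay farther. The adjusted p ran from 0.000698 for Armcx2 to 0.0455 for Msx1.

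Lower at 24 h than at 4 h were Ccn2 (-1.55), Ptgs2 (-1.05), Tnfrsf12a (-0.97), Wnt2 (-0.88), Hmga2 (-0.84), Dusp6 (-0.8), Hbegf (-0.76) and Il1rap (-0.71). Smaller differences in that direction were those of Ptgis (-0.52), Fgf2 (-0.47), Tgfb1 (-0.33), Skil (-0.31), Acvr1 (-0.31), Msx1 (-0.28) and Flt1 (-0.25). Further ones were Tuba1c (-0.6), Hspa5 (-0.57), Lox (-0.55), B3gnt5 (-0.5), 2510002D24Rik (-0.39), Ccn4 (-0.32), Tgm2 (-0.3) and Cgnl1 (-0.3).

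Higher at 24 h than at 4 h were Cavin2 (0.88), Cobl (0.86), Adamts5 (0.85), Armcx2 (0.76), Sema3a (0.66), Cdh11 (0.62), Ube2h (0.52), Pmp22 (0.5), Adamts1 (0.39), Prrx1 (0.37), Nkd1 (0.36), Pxylp1 (0.36), Ptger2 (0.36) and Hip1 (0.29).

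Without the replicate number 5 of the 37 passed: Tnfrsf12a (limma adjusted p = 0.00507), Hbegf (0.0279), Ube2h (0.0285), Ccn2 (0.0285) and Cavin2 (0.0285). Against 12 h, Vcam1 was 0.67 higher at 24 h (limma adjusted p = 0.0263), Armcx2 0.42 higher (0.0387) and Hspa5 lower, at -0.75 (0.0387).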

How the results depend on the processing

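The count of genes at 24 h against control (14) and of probes (4) depended on the replicate block. Without the block 0 genes and 0 probes passed in limma (166 and 378 at an unadjusted p under 0.05), as on the 6 arrays alone without it (120 and 279 unadjusted). On the 6 arrays with the block 8 genes passed, 6 of them among the 14, and Alx1 (0.00698) and Tgtp1 (0.0196) joined. The methods' t-test gave 175 genes and 369 probes unadjusted, and 0 and 0 after Benjamini-Hochberg. Leaving out an array or a number gave 0 to 7 genes and 0 to 3 probes: 0 genes without number 2 or 3, and 3 without number 1, where 2 pairs remain. For 24 h against 4 h (335 genes) the count was 6 without the block and 6 to 545 when arrays or numbers were left out: 545 without control 3, 154, 85 and 85 without 24 h array 1, 2 or 3, and 171, 6 and 34 without number 1, 2 or 3. For 24 h against 12 h (9 genes) it was 0 without the block, 5 with a prior trend and 0 to 28 when arrays or numbers were left out (28 without control 3).

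Quantile normalization gave 15 genes, 13 of them among the 14, centring 13, a prior trend 15, and leaving out the 25% of rows with the lowest ratios 10. In that last setting only 10 of the 14 genes were still tested, and all 10 passed. No gene of the 14 changed sign in any alternative that tested it. Each had 1 sign in all 3 pairs, so the kept sign was largely fixed in advance. Signs turned for genes near 0 when arrays or numbers were left out: Msx2 ran from -0.007 to 0.106, Acvr1 from -0.03 to 0.041, Bmpr1a from -0.009 to 0.076 (and -0.003 for 1 of its 3 probes), Cdh5 from -0.234 to 0.024, Flt1 from -0.077 to 0.021 and Hmga2 from -0.046 to 0.252. Apart from what fewer arrays imply, the cause was not tested. Signal over background was not used here.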

Other observations

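Other gene groups held no gene that passed at 24 h. Of 15 unfolded protein response genes 12 lay below 0 (median -0.118), with pair medians of -0.09, 0.002 and -0.268. The chaperone gene Hspa5 stood at 3.2, 3.02 and 3.72 in control and 2.96, 2.98 and 3.14 at 24 h, a change of -0.29 (SE 0.105, limma adjusted p = 0.518). Hsp90b1, another chaperone of the endoplasmic reticulum, was at -0.27 (SE 0.107). Of 35 ribosomal protein genes 28 lay below 0 (median -0.107, beside -0.005 over all genes), with pair medians of -0.015, -0.073 and -0.253. Pair 3 was the lowest for both groups. It was also the lowest over all genes (pair medians of 0.02, -0.006 and -0.018), so that order is not particular to these groups.

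Interferon-responsive and inflammatory genes also held no call. Of 16 interferon-responsive genes 12 lay below 0 (median -0.042). Tgtp1, an interferon-induced GTPase, was at 0.04, -0.14 and 0.35 in control and -0.7, -0.88 and -0.22 at 24 h, all below control (change -0.68, SE 0.126, limma adjusted p = 0.106). The transcription factor gene Irf1 was at -0.22 (SE 0.063). Lbp, which encodes a protein that binds bacterial lipopolysaccharide, was at -0.46 (SE 0.0816, limma adjusted p = 0.0873), and the adhesion molecule gene Vcam1 at -0.14 (SE 0.075) after -0.8 at 12 h. Among 11 detoxification enzymes 8 lay below 0 (median -0.066), and they ran from -0.35 to 0.33. The highest was Cyp1b1, a cytochrome P450, at 2.93, 2.97 and 2.17 in control and 2.98, 3.46 and 2.62 at 24 h (change 0.33, SE 0.139, limma adjusted p = 0.573). Ephx1, an epoxide hydrolase, read 1.95, 2.02 and 2.5 in control and 1.7, 1.88 and 1.84 at 24 h (change -0.35, SE 0.0994, limma adjusted p = 0.361), and Mgst1, a glutathione transferase, was at -0.28 (SE 0.113). Krt19, a keratin on the epithelial list, was at 0.23 (SE 0.0652, limma adjusted p = 0.384), and 5 of 10 epithelial markers lay above 0.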
